A study of Drosophila melanogaster with 3 samples.

Results

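Weak promoter peaks are peaks from ChIP-seq of CG17385 that lay at gene starts but did not enter the final peak list. That list comes from the irreproducible discovery rate (IDR) step, which weighs how well the ranking of peaks repeats between replicates. The members were the lines of the pooled list of peaks and background that overlapped no interval of the IDR list. Only lines on the main chromosomes counted, and the summit, the position of highest signal, had to be at most 500 bp from the start site of a protein-coding gene. In all, 4244 of the 30000 pooled lines met this rule. They were set against the 3481 of 7588 IDR peaks whose summits lay in the same windows, called IDR promoter peaks below. A further 649 pooled promoter summits lay inside an IDR interval without being lines of the IDR list, and belong to neither class. The members were chosen by the pooled signal, through absence from the IDR list, and by the distance to a start site, so their number and their signal are descriptions without a test.

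The series measured chromatin bound by CG17385 in whole Drosophila melanogaster embryos of both sexes, collected at 0 to 24 h. The transgenic line carries GFP joined to the C-terminal end of CG17385, and all samples share it. There was 1 group of 3 biological replicates and no group without the fusion among these samples, so every contrast below is between classes of peaks or genes. No list from input or from embryos without the fusion was analysed here, so binding of CG17385 at a weak peak cannot be told apart from signal that any ChIP would give there. The labels conflict, since one descriptive line names the samples as input while the fields for assay and antibody describe ChIP of CG17385. They were treated as ChIP here. The collection spans all of embryogenesis and all tissues, so a peak cannot be assigned to a stage or a cell type. The numbers of reads behind the lists are unknown.

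A promoter is the stretch of DNA around a start site where RNA polymerase II assembles. Drosophila promoters carry recurrent short elements, among them the TATA box, the DNA replication-related element (DRE) bound by DREF, and the element bound by M1BP. DRE and M1BP elements are typical of genes that are active in most cells. GAGA elements, bound by GAGA factor, are typical of developmentally regulated genes. Many Drosophila genes are arranged head to head, with start sites of opposite direction close together.

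The sequences below show the DRE, M1BP and GAGA elements at weak promoter peaks and a GAA repeat at IDR promoter peaks. The DRE, M1BP and GAGA elements were at 3.46%, 3.06% and 7.52% of weak and 5.17%, 3.45% and 8.10% of IDR promoter summits. The repeat too was at a minority of IDR promoter summits. Each sequence runs from 50 bp before to 50 bp after a summit on the plus strand of Release 6 (dm6), taken from the RefSeq copy of the genome. For each element the sequences belong to the strongest eligible peaks that were matched in every replicate list and held it within this window, with at most 30 bases of UTR. Capitals mark the element a sequence was chosen for, on either strand, and other elements in it are left unmarked. The first and second lines show the DRE in the weak promoter peaks of CG16952 (chrX:15870089-15870189, signal 124.8, summit 44 bp upstream of the start site) and CG8814 (chr2L:2874750-2874850, signal 115.2, summit 90 bp upstream).
CG16952: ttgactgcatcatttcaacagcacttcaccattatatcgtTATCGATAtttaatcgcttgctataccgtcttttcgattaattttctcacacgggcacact
CG8814: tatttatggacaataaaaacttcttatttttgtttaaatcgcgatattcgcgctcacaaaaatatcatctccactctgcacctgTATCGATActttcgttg
The M1BP element is shown in the weak promoter peaks of Vha100-1, which encodes a subunit of the vacuolar proton pump (chr3R:29131109-29131209, signal 101.8), and CG7328 (chr3L:20140919-20141019, signal 79.8), where it lies on the minus strand.
Vha100-1: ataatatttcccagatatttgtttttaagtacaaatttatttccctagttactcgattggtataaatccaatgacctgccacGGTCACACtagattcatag
CG7328: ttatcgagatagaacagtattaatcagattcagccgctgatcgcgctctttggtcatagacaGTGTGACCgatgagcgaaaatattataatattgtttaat
GAGA elements are shown in the weak promoter peaks of snu, which encodes an ABC transporter of the cuticle barrier (chr3R:28674932-28675032, signal 158.6), and GstD1, a glutathione transferase gene (chr3R:12369291-12369391, signal 153.5).
snu: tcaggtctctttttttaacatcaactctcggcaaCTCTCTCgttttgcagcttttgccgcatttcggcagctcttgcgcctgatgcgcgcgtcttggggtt
GstD1: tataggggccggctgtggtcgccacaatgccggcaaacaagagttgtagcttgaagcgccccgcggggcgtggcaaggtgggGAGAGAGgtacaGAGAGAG
For contrast, the GAA repeat is shown in IDR promoter peaks of eyg, a Pax-family gene (chr3L:12468229-12468329, signal 4942), and Ltn1, the gene of a ubiquitin ligase of stalled ribosomes (chr3L:19552255-19552355, signal 4414).
eyg: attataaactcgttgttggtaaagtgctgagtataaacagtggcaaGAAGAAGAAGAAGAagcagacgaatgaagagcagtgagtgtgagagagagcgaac
Ltn1: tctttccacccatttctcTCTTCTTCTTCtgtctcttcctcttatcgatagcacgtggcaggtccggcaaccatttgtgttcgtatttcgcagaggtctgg

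The members spanned most of the lower part of the pooled list. Their pooled signal, the score that the authors deposited on a scale that is not stated, ran from 41.6 to 159.8 with a median of 77.0 and quartiles of 55.9 and 108.4. The IDR promoter peaks ran from 160.0 to 6471 with a median of 332.0. The −log10 of the deposited q-value had a median of 1.09 in the members and was at least 2 in 923 of them (21.7%). Their pooled ranks ran from 7591 to 29991. The boundary was a level of pooled signal, and every IDR promoter peak lay above every member. It separated near neighbours in signal. The members with the highest signal lay at CG34384 (159.8), at gsb, a Pax-family segmentation gene (159.7), and at run, which encodes a Runx-family transcription factor (159.6). The IDR promoter peaks with the lowest signal lay at CG2246 (160.0), at Btk, a tyrosine kinase gene (160.1), and at CG43693 (160.1). The peak of CG43693 had no summit within 100 bp in replicate 2, so the boundary did not sort each peak by its own recurrence.

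Most members had a counterpart in some replicate lists but not in all. A summit within 100 bp was found in every replicate list for 860 members (20.3%), in exactly 2 lists for 1694, in exactly 1 for 1409 and in none for 281. Among IDR promoter peaks, 3012 of 3481 (86.5%) were in every list. The replicate lists entered both the pooled list and the IDR step, so this contrast follows in part from the rule and was not tested. By replicate, 59.5%, 46.7% and 67.7% of members were found in replicates 1, 2 and 3 (57.9% ± 10.6, SD, n = 3). The 16717 pooled peaks outside the IDR list that lay away from promoters were found in every list in 16.9% of cases. Among the members matched in a replicate list, the median rank there was 13774 in replicate 1, 13746 in replicate 2 and 14156 in replicate 3, out of 30000. Of the members, 53 had a summit among the 7588 strongest peaks of 2 replicates, 587 had one in a single replicate, and 0 had one in all of them. With matching within 50 bp, 200 bp or by any overlap of intervals, the share of members in every list was 9.35%, 32.99% and 49.2%.

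**Figure D1:**
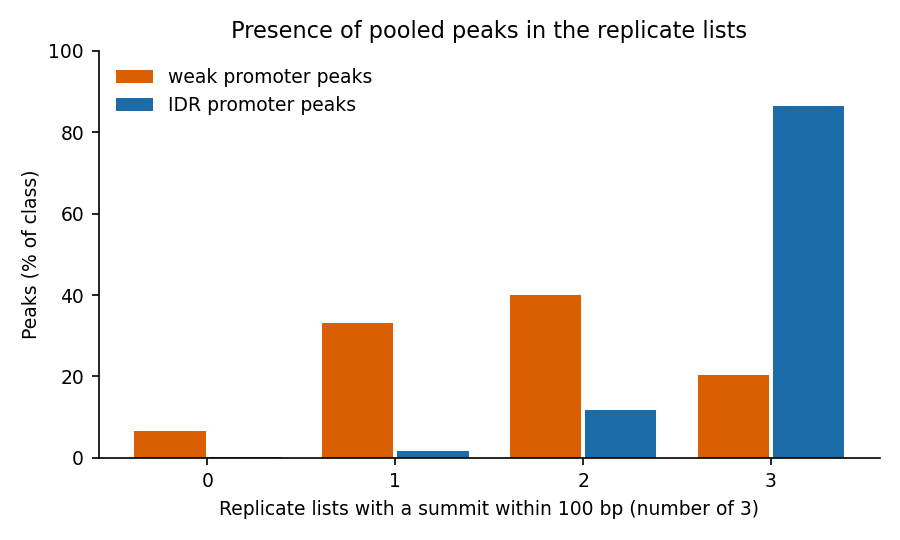
Share of weak promoter peaks (orange, n = 4244) and IDR promoter peaks (blue, n = 3481), in percent of the class, by the number of replicate lists that held a summit at most 100 bp away. Weak promoter peaks were most often in 2 lists, whereas 86.5% of IDR promoter peaks were in all 3.

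The strongest members that were found in every replicate illustrate how ranks varied. The peak of run ranked 9083, 6756 and 9205 in replicates 1, 2 and 3. At gsb the ranks were 5421, 8832 and 13830, and at CG34384 they were 8102, 6630 and 10451. In the pooled list these peaks lay near rank 7588, the length of the IDR list. Their replicate ranks lay on both sides of it, from 5421 to 13830. The peak of slbo, the C/EBP gene needed for border cell migration, ranked 4459 and 7978 in replicates 1 and 3 but 29289 in replicate 2. The peak of Hsp110, a co-chaperone gene, ranked 5169, 15842 and 14518 in replicates 1, 2 and 3. At fz3, a Frizzled-family receptor gene with a DRE at its summit, the ranks 7222, 7554 and 8193 lay close together. The ranks of Vkor, which encodes vitamin K epoxide reductase, were 8065, 8122 and 8765. The other peaks of this set lay at CG33080, at AlaRS-m, a mitochondrial alanyl-tRNA synthetase gene that shared its peak with Fitm, at Eo, mspo, CG34347, at Gyg, the gene of glycogenin, at CG11076, which shared its peak with the ATP synthase gene ATPsynbeta, and at snu. Their pooled signals ran from 158.6 to 159.5.

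**Figure D2:**
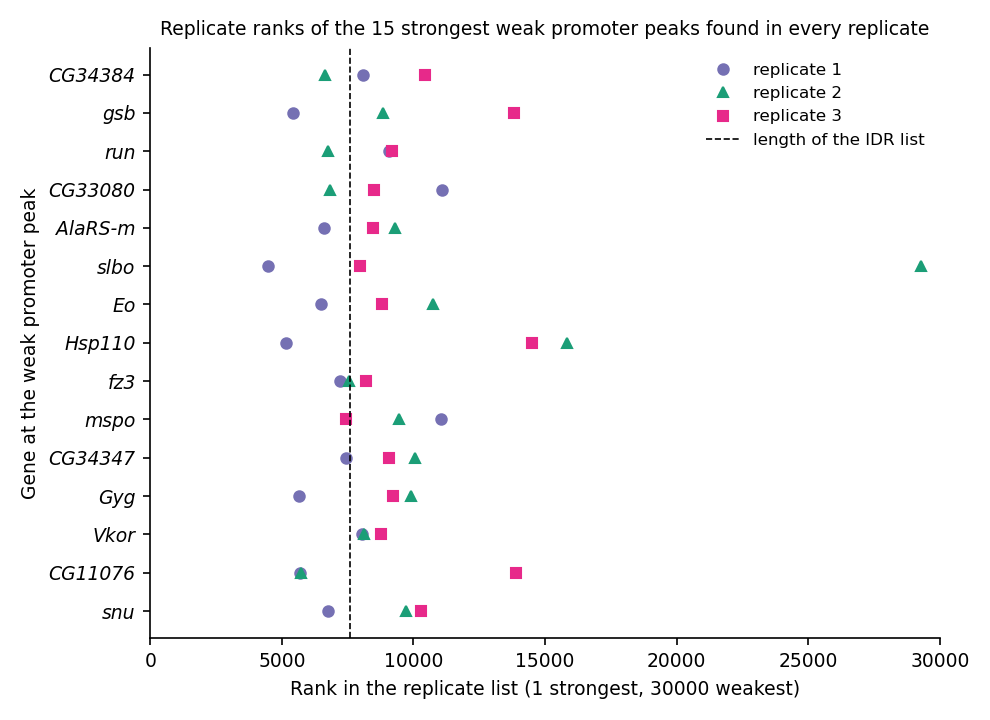
Ranks in the list of each replicate (x axis, 1 strongest, 30000 weakest) of the 15 weak promoter peaks of highest pooled signal that were matched at 100 bp in every replicate list, with 1 symbol per replicate and the length of the IDR list (7588) as a dashed line. For most genes the symbols lay on both sides of the line, and slbo had 1 replicate at rank 29289.

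Weak promoter peaks lay further downstream than IDR promoter peaks. The summit was downstream of the nearest start site in 1890 of 4244 members (44.5%, Wilson 95% interval 43.0 to 46.0), against 1158 of 3481 IDR promoter peaks (33.3%, 31.7 to 34.8). The difference was 11.3 points (Fisher exact test, 2-sided, p = 5.78e-24). The same split made inside each replicate list, with its 7588 strongest peaks in the place of the IDR list, gave 8.76, 13.02 and 12.2 points (11.3 ± 2.26, SD, n = 3). The median summit was 22 bp upstream of the start site in members and 65 bp upstream in IDR promoter peaks. In the bin from 200 to 100 bp upstream lay 12.8% of members and 20.1% of IDR promoter peaks. In the bin from 100 to 200 bp downstream lay 8.81% of members and 5.63% of IDR promoter peaks. The share within 100 bp of the start site was 41.7% in members and 43.7% in IDR promoter peaks (-1.99 points, p = 0.0789 by the Fisher exact test). This direction turned in other settings. Intervals and tests over peaks cover counting error only, since peaks are not replicates.

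**Figure D3:**
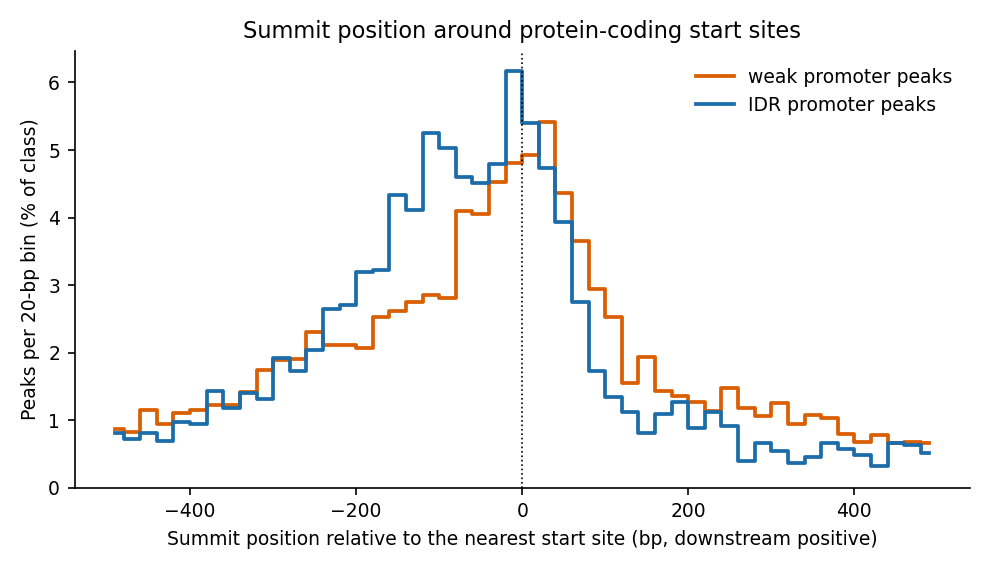
Position of the summit relative to the nearest protein-coding start site (x axis, bp, downstream positive) for weak promoter peaks (orange, n = 4244) and IDR promoter peaks (blue, n = 3481), in percent of the class per bin of 20 bp. The orange line lies below the blue one in every bin centred from -230 to 10 bp and above it in every bin centred from 30 to 210 bp.

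Coding sequence held 252 member summits (5.94%) and 79 IDR promoter summits (2.27%). Annotated 5' UTRs held 33.3% of members and 30.7% of IDR promoter peaks, introns 27.1% and 24.3%, and 3' UTRs 1.65% and 1.18%. Sequence between genes held 31.9% of members and 41.6% of IDR promoter peaks. The interval of a member was 440 bp wide in the median, as was that of an IDR promoter peak, so the width carried no contrast.

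Weak promoter peaks were less often found at head-to-head genes. A summit within 500 bp of start sites of genes on opposite strands was seen in 446 of 4244 members (10.5%, Wilson 95% interval 9.62 to 11.5), against 981 of 3481 IDR promoter peaks (28.2%, 26.7 to 29.7). The difference was -17.7 points (Fisher exact test, 2-sided, p = 8.88e-89). Inside the replicate lists it was -13.1, -19.0 and -17.9 points (-16.6 ± 3.13, SD, n = 3). Among peaks whose start sites lay on 1 strand, 45.1% of 3798 members and 34.8% of 2500 IDR promoter peaks were downstream of the start site. This difference of 10.2 points (Fisher exact test, p = 5.58e-16) came from an alternative chosen after seeing the data. Within the members, the share at head-to-head genes was 7.16% in the quartile group of lowest signal and 13.5% in that of highest signal. It was 22.4% in the lowest quartile group of IDR promoter peaks and 33.2% in the highest.

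Most members lay away from IDR summits, which the rule favours by barring overlap with an IDR interval. Members could overlap each other, as at smo and SoxN, and such members count as separate peaks in the tests. The median distance from a member summit to the nearest IDR summit was 3969.5 bp. An IDR summit lay within 1000 bp of 573 members (13.5%) and within 2000 bp of 1279 (30.1%). Of the 6 chromosomes, 2 (33.3%) differed in their share. Chromosome X held 19.6% of members and 16.98% of IDR promoter peaks (adjusted Fisher exact p = 0.0174), a difference of 2.65 points that was 1.09 ± 0.531 in the replicate lists (SD, n = 3). Chromosome 4 held 44 members (1.04%) and 18 IDR promoter peaks (0.517%, adjusted Fisher exact p = 0.0427). The number of chromosomes called was 0 without any 1 of the replicates.

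Several promoter elements were more frequent at the summits of weak promoter peaks than in sequence 1000 bp away. In the window from 100 bp before to 100 bp after the summit, 7 of 16 motifs (43.8%) were more frequent than in a window of the same length 1000 bp away. None of the 16 was less frequent there, at an adjusted or an unadjusted p under 0.05 (exact McNemar test). The motifs, searched on either strand, were the DRE (TATCGATA), the BEAF-32 core CGATA, which is contained in the DRE, the M1BP core (GGTCACAC), GAGAGAG, the Zelda site CAGGTAG, the TATA box TATAAA, the E-boxes CAGCTG and CACGTG, CACACACA, the AP-1 site TGAGTCA, the GATA site AGATAAG, the Pho core GCCATTT, the CTCF core AGGTGGCG, the Su(Hw) core TGCATACT, the Ibf core TACTTTA and AAAAAAAA. The rule places every summit near a start site and the flank mostly further from it, so this contrast does not separate the peaks from promoters in general. Windows of the same length at the 5' ends of genes without a pooled promoter peak held the DRE (5.46%), the M1BP core (5.04%), the BEAF-32 core (35.1%) and TATAAA (33.7%) more often than member summits did. They held GAGAGAG (2.38%), CACACACA (2.19%) and AAAAAAAA (10.1%) less often. These windows are centred on a start site and not on a summit, and the difference was not tested. A match is a run of letters and not a binding site shown by these data.

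The DRE was found at 147 member summits (3.46%) and in 35 flanks (0.825%; exact McNemar test, adjusted p = 4.80e-17). Measured in the weak peaks of each replicate list, this excess of 2.64 points came to 2.63, 2.42 and 2.87 points (2.64 ± 0.225, SD, n = 3). The M1BP core was found at 130 member summits (3.06%) and in 29 flanks (0.683%; exact McNemar, adjusted p = 5.74e-16), with an excess of 2.40 ± 0.327 points in the replicates. GAGAGAG was found at 319 summits (7.52%) and in 134 flanks (3.16%; exact McNemar, adjusted p = 2.80e-18), with an excess of 3.86 ± 0.498 points in the replicates. These 3 motifs were called in every alternative tried. The BEAF-32 core was found at 30.5% of member summits and in 23.6% of flanks (exact McNemar, adjusted p = 2.64e-12). By the same exact test, the CACACACA repeat was found at 7.05% and 3.86% (adjusted p = 1.44e-10), AAAAAAAA at 12.5% and 9.99% (adjusted p = 0.000844), and TATAAA at 24.2% and 21.6% (adjusted p = 0.00796). In the window of 50 bp on each side, the TATA excess was 0.589 points (adjusted exact McNemar p = 0.675), against 2.66 points in the wider window. Without replicate 3, which leaves fewer peaks, it was 3.601 points and not called (exact p = 0.0888). The poly-A excess of 2.50 points was not called at 2.53 points without replicate 1 (exact p = 0.116), 1.06 without replicate 2 (0.512), 1.41 with members of −log10 q of at least 2 (0.657), 1.98 with members found in every replicate list (0.387) and 1.28 without members near an IDR summit (0.190).

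Set against IDR promoter peaks, 3 of 16 motifs (18.8%) were less frequent at the weak ones and 0 were more frequent, also at an unadjusted p under 0.05 (Fisher exact test, 2-sided). The DRE was at 3.46% of member summits and 5.17% of IDR promoter summits (adjusted Fisher exact p = 0.00214). By the same exact test, TATAAA was at 24.2% and 30.2% (adjusted p = 6.51e-08), and CAGCTG at 11.3% and 13.7% (adjusted p = 0.00851). For the M1BP core the shares were 3.06% in members and 3.45% in IDR promoter peaks (adjusted Fisher exact p = 0.504), and for GAGAGAG 7.52% and 8.10% (adjusted p = 0.504). Weak peaks away from promoters held the DRE at 0.401% of summits and in 0.455% of their flanks. They held the M1BP core at 0.323% of summits and in 0.353% of flanks.

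The GAA repeat was not enriched at the members. The word GAAGAAGA, named after its values were seen, was at 84 member summits (1.98%) and in 79 of their flanks (1.86%; exact McNemar, adjusted p = 0.895). It was at 430 IDR promoter summits (12.4%) and in 74 of their flanks. In weak peaks away from promoters it was at 614 of 16717 summits (3.67%) and in 1.42% of flanks. In the split of each replicate list, the weak promoter peaks held it in 1.63%, 2.29% and 1.70% of cases and the strong ones in 11.4%, 12.5% and 11.4%, in replicates 1, 2 and 3. The replicates did not overlap between the classes. The word was called at the members with windows of 1000 bp around start sites, where the excess was 0.843 points (adjusted exact McNemar p = 0.00848). Such windows take in sites further from the start site.

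The comparison was then widened beyond this word. Words of 8 bases were learned at the IDR promoter peaks, where 565 of 32893 were at least 2-fold more frequent at summits than in flanks at an adjusted p under 0.05. This choice fixes their folds at IDR promoter peaks at 2 or more, so lower folds elsewhere follow in part from it. Tested at the members, which were not among the peaks of the choice but lie at start sites as well, 159 of the 565 (28.1%) were more frequent at summits than in flanks (exact McNemar, adjusted p under 0.05). None was less frequent by this test, and 2 were at an unadjusted p under 0.05. An IDR summit lay within 1000 bp of 573 members, so some windows of members and of IDR promoter peaks may overlap. The number called higher was 46 without replicate 1, 70 without replicate 2 and 43 without replicate 3. Of the 41 learned words that contain CGATA or the overlapping ATCGA, as the DRE does, 28 were called. Their median fold over the flanks was 2.14 at members, 3.33 at IDR promoter peaks and 0.968 at weak peaks away from promoters. Of the 21 learned words that contain 6 bases of the GAA repeat in any phase, 0 were called by the exact McNemar test. At an unadjusted p under 0.05, 1 of these words was higher at member summits and 1 lower. Their median fold was 1.03 at members, 2.47 at IDR promoter peaks and 1.44 at weak peaks away from promoters.

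Among the 10 learned words with the largest fold at members were the M1BP core and the DRE. CGCGCACG was at 44 member summits and in 4 flanks, an 11-fold excess (exact McNemar, adjusted p = 2.18e-08), and had a fold of 4.67 at IDR promoter peaks. CGAACGCG was at 54 summits and in 11 flanks (adjusted exact p = 1.31e-06). The others were CGACGTCG, ACGCGCGC, CGCGCGCC, ACGCGCAC, GGTCACAC (the M1BP core), ATCGATAA, ACGTCGGC and TATCGATA (the DRE), with folds of 4.20 to 5.43 at members.

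The share of each element changed along the signal in its own way. From the quartile group of lowest to that of highest signal, the DRE was at 1.51%, 3.49%, 3.39% and 5.47% of members, and then at 4.94%, 4.71%, 5.29% and 5.75% of IDR promoter peaks. The M1BP core was at 1.60%, 2.07%, 3.86% and 4.71% of members, and at 4.59%, 4.25%, 2.41% and 2.53% of IDR promoter peaks. The strongest quartile group of members stood at 5.47% and 4.71% for these elements, and the weakest of IDR promoter peaks at 4.94% and 4.59%. GAAGAAGA was at 1.89%, 1.60%, 2.07% and 2.36% of members, and at 3.33%, 4.37%, 9.08% and 32.6% of IDR promoter peaks. These groups are cut on the pooled signal and are given without a test.

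**Figure D4:**
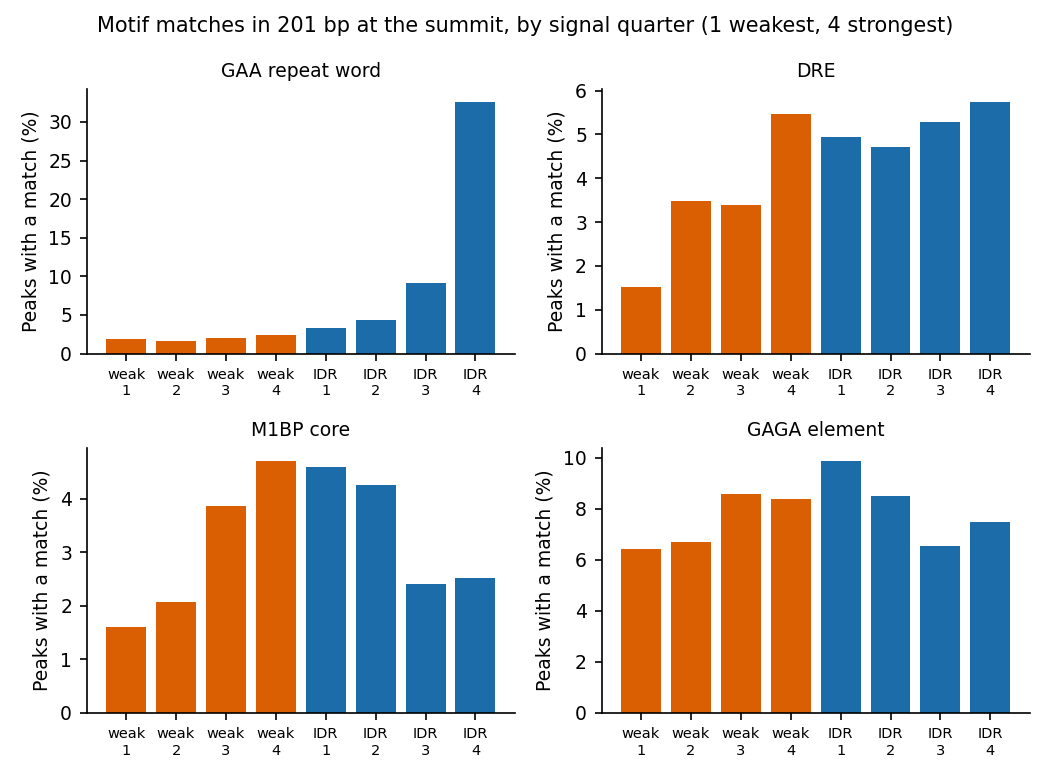
Share of summits, in percent, with a match to the GAA repeat word, the DRE, the M1BP core or the GAGA element in the window of 100 bp on each side, for the 4 signal quartile groups of weak promoter peaks (orange) and of IDR promoter peaks (blue). The GAA repeat word reached 32.6% in the strongest IDR group and stayed at or below 2.36% in all 4 weak groups, and the DRE was at 5.47% of the strongest weak group.

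Base composition differed between the classes. The median GC content around the summit was 42.3% in members and 38.3% in IDR promoter peaks, with flanks at 42.8% and 44.8%. Around start sites of genes without a pooled promoter peak it was 40.3%. In the replicate lists the weak promoter peaks exceeded the strong ones by 3.15 ± 0.574 points of GC (SD, n = 3). The part of GC content in the motif shares was not tested.

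The members pointed to 3497 of 13945 protein-coding genes (25.1%). Of these, 2870 had no IDR promoter peak and are called weak-only genes (20.6% of all genes), and 627 had an IDR promoter peak as well. An IDR promoter peak was found at 3746 genes (26.9%). No pooled promoter peak was found at 7304 genes (52.4%), and 25 had only a summit inside an IDR interval. CG17385 itself (FBgn0033934, chromosome 2R) was among the genes without a pooled promoter peak, so its own start site is not a member. A single weak promoter peak was found at 2538 genes, 2 at 733 and 3 at 158. Svil, the supervillin gene, had the most, with 12 members among its 16 start sites (signals 43.5 to 154.8) and an IDR promoter peak besides. CG12963 had 9 members over 12 start sites and no IDR promoter peak, and the phosphodiesterase gene Pde8 had 7 over 10 start sites and an IDR promoter peak.

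In their spacing, weak-only genes were nearer to all genes than to genes with an IDR promoter peak, which had closer neighbours. The start of another gene was 1650 bp away in the median for weak-only genes and 493.5 bp for genes with an IDR promoter peak. It was 1723.5 bp for genes without a pooled promoter peak and 1416 bp for all genes. Another start lay within 1000 bp of 38.5% of weak-only genes and of 61.6% of genes with an IDR promoter peak, with 42.2% over all genes. The median gene length was 3025 bp in weak-only genes, 3464 bp in genes with an IDR promoter peak and 1625.5 bp in genes without a pooled promoter peak. The 627 genes with both kinds of peak were long, with a median of 11888 bp and of 3 start sites. The weak-only share was 18.4% of genes with 1 start site, 26.5% with 2, 27.8% with 3 or 4 and 20.5% with 5 or more.

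The class of a gene moved between replicates more than the summary counts did. With the split made in each replicate list, 3286, 2692 and 3172 genes were weak-only in replicates 1, 2 and 3. Of the 2870 pooled weak-only genes, 901 were weak-only in all 3 splits and 117 in none. A promoter peak among the 7588 strongest was present in at least 1 replicate at 644 of them, and in all 3 at 16.

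At the 5' ends of genes, the DRE, the M1BP core and GAGAGAG were more frequent in weak-only genes than in genes without a pooled promoter peak, whereas TATAAA was less frequent and AAAAAAAA was nearly as frequent. In the window of 100 bp on each side of the annotated 5' end, the DRE was found at 9.97% of weak-only genes (Wilson 95% interval 8.92 to 11.1), 10.9% of genes with an IDR promoter peak (9.91 to 11.9) and 5.46% of genes without a pooled promoter peak (4.96 to 6.01). Over all 13945 genes it was 7.84%. The M1BP core was found at 7.04%, 9.77% and 5.04% of these classes in the same order, and at 6.76% of all genes, which lies inside the interval of weak-only genes (6.16 to 8.03). GAGAGAG was found at 4.88%, 5.26% and 2.38%, and at 3.69% of all genes. TATAAA was found at 24.9%, 23.6% and 33.7%, and at 29.2% of all genes. AAAAAAAA was found at 9.76% of weak-only genes and 10.1% of genes without a pooled promoter peak. GAAGAAGA was found at 0.523% of weak-only genes (0.317 to 0.861), 5.39% of genes with an IDR promoter peak (4.71 to 6.16) and 0.671% of genes without a pooled promoter peak (0.508 to 0.886). No test was made between the gene classes, which come from the rule.

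The gene lists differed widely in their share of weak-only genes. Of 32 gene lists, 13 lay above the 20.6% of all genes. The Wilson 95% interval lay wholly above it for Hox, muscle, proneural and neuroblast, segment polarity, synaptic and cytochrome P450 genes. It lay wholly below it for cytoplasmic ribosomal protein, chemosensory receptor, cuticle protein, seminal fluid protein and histone genes. For the other 21 lists, among them gap, pair-rule, dorsoventral, axon guidance, translation factor and mitochondrial ribosomal protein genes, the interval included the share of all genes. No set test was made, and the counts describe the lists. Genes are named below by pooled signal, and a peak given without ranks need not be matched in every replicate list.

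**Figure D5:**
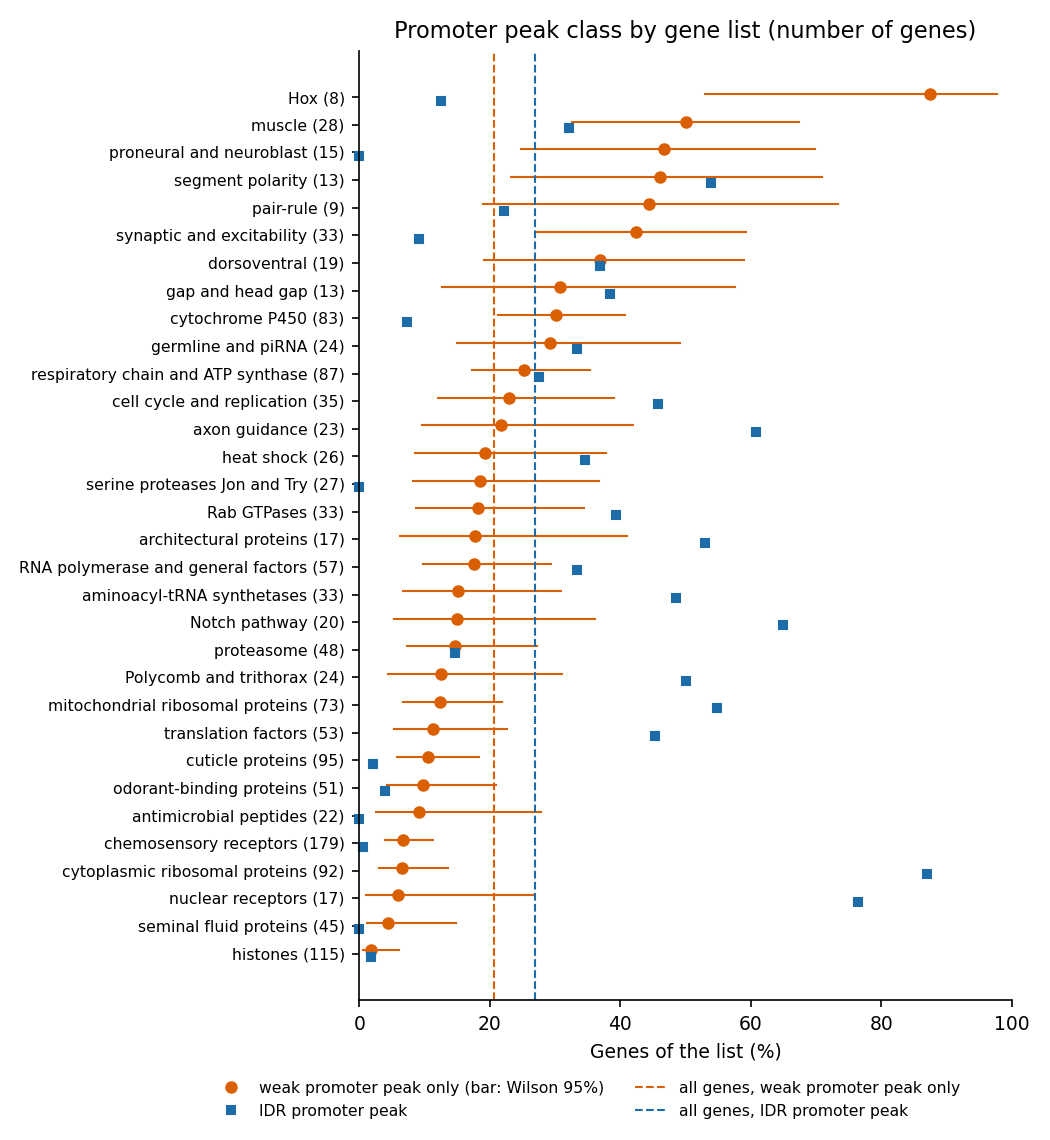
Share of the genes of each list (x axis, percent) with a weak promoter peak and no IDR promoter peak (orange circles, Wilson 95% interval) and with an IDR promoter peak (blue squares), with the shares over all 13945 protein-coding genes as dashed lines at 20.6% and 26.9%. Hox genes stand highest for weak-only peaks at 87.5%, and cytoplasmic ribosomal protein genes have 6.52% weak-only and 87.0% IDR promoter peaks.

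Hox genes, which give segments along the body axis their identity, were weak-only in 7 of 8 cases (87.5%, Wilson 95% interval 52.9 to 97.8). The eighth, Dfd, had an IDR promoter peak. All lie on chromosome 3R. The peak of Ubx, which specifies the posterior thorax, had a pooled signal of 157.5 at chr3R:16734180-16734619, with its summit in the 5' UTR 26 bp downstream of the start site. It ranked 6146, 8453 and 12557 in replicates 1, 2 and 3. Abd-B, the most posterior gene, had a peak of signal 107.3 in an intron, 347 bp upstream of a start site, which ranked 10234, 12869 and 13610. These were the only Hox peaks found in every replicate. The remaining Hox genes had weaker peaks that were not in every list. Antp, the Hox gene of the second thoracic segment, had peaks of 67.3 and 54.2, both found in replicate 1 only. The peak of abd-A (60.8) ranked 18711 in replicate 1 and was not found in the others. Scr had peaks of 54.7 and 48.9, pb of 57.7 and 47.4, and lab a peak of 51.4 that matched no replicate list. The weak-only Hox share was 62.5%, 62.5% and 75% in the replicate splits. It was 3 of 8 with windows of 250 bp, 2 of 8 with members found in every replicate list, and 1 of 8 with members of −log10 q of at least 2. The list has a median length of 30563 bp and of 2 start sites.

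Among segment polarity genes, which pattern each segment through Wingless and Hedgehog signalling, 6 of 13 were weak-only and 7 had an IDR promoter peak. Besides gsb, the strongest peak of arm, the beta-catenin gene, had a signal of 135.5 and ranked 7254 and 6915 in replicates 2 and 3. It had no match in replicate 1, where another member at arm (50.9) ranked 7428. The strongest peak of smo, the Hedgehog signal transducer gene, reached 123.9 and was matched in replicate 3 alone. Another member at smo (110.6), with an overlapping interval, ranked 6605 in replicate 1 and 25617 in replicate 3. The peak of inv, the engrailed paralogue, had a signal of 113.7 and ranks of 15537, 9786 and 14247. Both hh (44.3), which encodes the Hedgehog ligand, and gsb-n (55.4) had faint peaks. Inside the replicate splits the share of the list was 7.69%, 46.2% and 38.5%. Restricted to members of −log10 q of at least 2 the list had 4 of 13, and to members found in every replicate list 2 of 13.

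Pair-rule genes, which divide the embryo into segments, were weak-only in 4 of 9 cases, namely run, slp2 (127.1), odd (100.2) and opa (72.9). Gap and head gap genes, which act before them, were weak-only in 4 of 13 cases, with knrl (151.2), Kr (143.5), hb (131.2) and slp1 (43.1). The peak of Kr ranked 6430 and 10437 in replicates 1 and 3 and was not matched in replicate 2. That of hb ranked 12350, 18679 and 7289 in replicates 1, 2 and 3. Dorsoventral genes were weak-only in 7 of 19 cases. The peak of Tl, the Toll receptor gene, had a signal of 156.9 with its summit 4 bp downstream of the start site, and ranked 8131, 10113 and 5799. Its ligand gene spz had a signal of 138.9, the homeobox gene vnd 133.8 with a DRE at the summit, and sna, the regulator of mesoderm invagination, 103.8.

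Proneural and neuroblast genes were weak-only in 7 of 15 cases (46.7%, 24.8 to 69.9), and none of the 15 had an IDR promoter peak. The other 8, ac, l(1)sc, ase, ato, amos, cato, dpn and wor, had no pooled promoter peak. The peak of pros, which encodes a homeodomain determinant of neural cell fate, had a signal of 152.4 and ranked 8925, 8540 and 9530. The peak of mira, whose protein carries Prospero into 1 daughter cell, had a signal of 124.7 and ranked 8820, 12655 and 12440. The ranks of pros lay close together and those of mira were further apart. The strongest peak of the Sox gene SoxN had a signal of 151.0 and ranked 7412 and 12597 in replicates 1 and 2 only. Another member at SoxN (97.5), with an overlapping interval, ranked 22690 in replicate 1 and 7506 in replicate 3. The peak of insc (137.9) was shared with sktl and matched in replicate 1 alone. That of sc (52.0) matched no replicate list. The replicate splits gave 26.7%, 46.7% and 40.0% for the list. Restricted to members of −log10 q of at least 2 the count was 5 of 15, and to members found in every replicate list 2 of 15. Counting gene 5' ends only, it was 5 of 15 as well.

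Synaptic and excitability genes were weak-only in 14 of 33 cases (42.4%, 27.2 to 59.2) and had an IDR promoter peak in 3. Of the 17 genes of the list with either kind of peak, 82.4% were weak-only, against 43.4% of the 6616 such genes overall. This share was not particular to the list. It was 80.6% for cytochrome P450, 83.3% for cuticle protein, 92.3% for chemosensory receptor and 100% for proneural and neuroblast genes. The synaptic list has a median length of 26844 bp and of 2 start sites. The peak of Rbp, an active zone scaffold gene, had a signal of 125.4 and ranked 9354, 16252 and 11266. The calcium-activated potassium channel gene slo had a signal of 116.7, the synaptobrevin gene Syb 109.2 with a DRE and an M1BP core at its summit, and the potassium channel gene Shal 98.2. The peaks of Rbp and Syb were matched in every replicate list, and nSyb, also on the list, had no pooled promoter peak. The shares in the replicate splits were 48.5%, 42.4% and 51.5%. With members of −log10 q of at least 2, the share was 6.06%, against 5.71% of all genes, and with members found in every replicate list it was 15.2%, against 5.32%.

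Muscle genes were weak-only in 14 of 28 cases (50%, 32.6 to 67.4), and 9 had an IDR promoter peak. The peak of the tropomyosin gene Tm2 had a signal of 152.1, lay 13 bp downstream of the start site and ranked 8297, 11208 and 7846. The peak of Mhc, the muscle myosin heavy chain gene, reached 123.4, with ranks of 28280, 7786 and 10394 in replicates 1, 2 and 3. The myoblast fusion receptor genes kirre and sns had strongest peaks of 113.9 and 113.0, both found in every replicate list. Mef2, the regulator of muscle differentiation, had an IDR promoter peak and 3 members besides, with signals of 102.8, 70.3 and 66.5. The shares of the list in the replicate splits were 35.7%, 39.3% and 42.9%. With members of −log10 q of at least 2 it was 10.7%, and with members found in every replicate list 17.9%, against 5.71% and 5.32% of all genes. The list has a median length of 7848.5 bp and of 2 start sites. Counting gene 5' ends only, 10 of 28 genes (35.7%) were weak-only, against 20.8% of all genes.

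Cytochrome P450 genes, which oxidise hormones and foreign compounds, were weak-only in 25 of 83 cases (30.1%, 21.3 to 40.7) and had an IDR promoter peak in 6. The strongest were Cyp4d1 (149.5), Cyp6t1 (145.1), Cyp6w1 (141.3) and Cyp305a1 (136.2). Those of Cyp4d1, Cyp6t1 and Cyp6w1 were found in every replicate list. With members of −log10 q of at least 2 the share was 6.02%, near that of all genes, and with members found in every replicate list it was 8.43%.

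Cytoplasmic ribosomal protein genes were weak-only in 6 of 92 cases (6.52%, 3.02 to 13.5), since 80 had an IDR promoter peak and 6 had no pooled promoter peak. The peak of RpS30 had a signal of 158.5 and ranked 10957, 13479 and 6330. That of RpL40, whose product is made as a fusion to ubiquitin, had a signal of 154.7 and ranked 16328, 8291 and 6644. The others of this group were RpS10a (94.2), RpS5b (80.7), RpL21 and RpS15Ab. Several of these have a paralogue with an IDR promoter peak, as RpS10b, RpS5a and RpS15Aa do. Mitochondrial ribosomal protein genes were weak-only in 9 of 73 cases, led by mRpL40 (134.9, with an M1BP core), whose peak was matched in replicate 3 alone. Translation factor genes were weak-only in 6 of 53 cases, led by eEF1beta (127.0), which ranked 25950 and 5621 in replicates 2 and 3 only. Aminoacyl-tRNA synthetase genes were weak-only in 5 of 33 cases, where TrpRS (122.99) had a DRE.

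Respiratory chain and ATP synthase genes were weak-only in 22 of 87 cases (25.3%). An IDR promoter peak was found at 24, and 41 (47.1%) had no pooled promoter peak. ND-13B, a complex I subunit gene, had a signal of 157.3 with its summit 5 bp downstream of the start site. The proteasome, the protein-degrading particle, had 7 weak-only genes and 7 with an IDR promoter peak among 48. The other 34 (70.8%) had no pooled promoter peak, against 52.4% of all genes. The list was taken by symbol pattern, and these 34 include paralogues such as Prosalpha3T, Prosbeta2R1 and Rpt3R. The share without such paralogues was not computed. The peak of Rpn12 reached 157.2, held a DRE and was matched in replicate 1 alone. Cell cycle genes were weak-only in 8 of 35 cases, with stg, the Cdc25 phosphatase gene, at 144.3 and dap, a Cdk inhibitor gene, at 134.0. RNA polymerase and general factor genes were weak-only in 10 of 57 cases, led by Polr1D (130.1) and TfIIEalpha (118.8), and Rab GTPase genes in 6 of 33, led by Rab18 (133.1).

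In several regulatory lists more genes had an IDR promoter peak than were weak-only, as over all genes, where 43.4% of the genes with either were weak-only. Nuclear receptor genes were weak-only in 1 of 17 cases, Hr3 (156.0), and had an IDR promoter peak in 13. Notch pathway genes were weak-only in 3 of 20 cases, among them the ligand gene Ser (124.6), against 13 with an IDR promoter peak. Axon guidance genes were weak-only in 5 of 23 cases, led by Sema2b (128.0) and the Netrin receptor gene fra (104.6), against 14. Polycomb and trithorax genes were weak-only in 3 of 24 cases, Asx (72.8), ash2 (70.4) and Pc (62.9), against 12. Architectural protein genes were weak-only in 3 of 17 cases, against 9, and Ibf1 and Ibf2 shared 1 peak (60.8) with a DRE. Germline and piRNA genes were weak-only in 7 of 24 cases, led by mael (155.3) and the differentiation gene bam (140.7, with a DRE), against 8, a weak-only share of 46.7% that lies above that of all such genes. Heat shock genes were weak-only in 5 of 26 cases, against 9. Their peak at Hsf, the gene of heat shock factor, had a signal of 144.5 and was matched in replicate 1 alone.

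Gene families known mainly from larval or adult tissues had few IDR promoter peaks. Chemosensory receptor genes were weak-only in 12 of 179 cases (6.70%, 3.88 to 11.4) and 1 had an IDR promoter peak. The strongest, Gr63a (90.6), a carbon dioxide receptor gene, shared its peak with Lamtor4. Cuticle protein genes were weak-only in 10 of 95 cases, led by Cpr65Ea (132.2), which was found in every replicate list. Odorant-binding protein genes were weak-only in 5 of 51 cases, led by Obp83cd (109.8), and seminal fluid protein genes in 2 of 45 (Sfp24F, 77.9, and Sfp79B, 62.3). Antimicrobial peptide genes were weak-only in 2 of 22 cases (AttD, 69.7, and DptB, 42.4), and the Jon and Try protease genes in 5 of 27 (18.5%, near the share of all genes), all with signals of at most 72.3. Histone genes were weak-only in 1.74% of cases, with His4r (156.1) and His3.3A (79.7), both outside the repeated cluster. The copies in that cluster are near-identical, and the sources used here do not say how reads with several matching places were counted.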

How the data were processed

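The data are ChIP-seq peak lists of 3 replicates of 1 group, a pooled list and an IDR list. The authors deposited a signal score of unstated scale and the −log10 of a q-value for each peak. Per the labels, coordinates are on dm6 and chromatin was sonicated to 200 to 800 bp. Per the text deposited with the samples, each replicate list came from 1 alignment and a file common to all replicates, the pooled list from all alignments, and the IDR list from these lists. The sources used here do not give the aligner, the peak caller or the IDR threshold. Signals were ranked only within a list, and depth is unknown.

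The annotation of start sites and gene parts was Ensembl release 115, and sequence from the RefSeq copy of Release 6, whose chromosomes contained every listed interval. Motifs and words were counted once per window, within 100 bp of the summit and within 100 bp of a point 1000 bp away on a side drawn with a fixed seed. Fold values used a flank count of at least 3. Shares of the classes were tested by Fisher's exact test, 2-sided, and summits with flanks by exact McNemar tests. Benjamini-Hochberg adjustment was made over 6 chromosomes, 16 motifs or 565 words, with a threshold of 0.05. Wilson 95% intervals cover counting error. Each contrast was repeated inside each replicate list, split at its 7588 strongest peaks, for the SD. Leaving out a replicate kept the peaks matched in both other lists. The gene lists were not recomputed without each replicate. These lists have a common control file and enter the pooled list, so they are not independent of it. The scripts were tested on simulated sequences.

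The members, motifs and lists were chosen with earlier results of these data known. The rule for named genes took CG17385, the 15 strongest members found in every replicate list, the 3 peaks on each side of the boundary, up to 4 weak-only genes per list, the 3 genes with the most members and the 10 learned words of largest fold. Other list members are named to complete a count, after their values were seen. Python 3.11.15, numpy 2.4.6, scipy 1.17.1 and matplotlib 3.10.9 were used.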

Additional observations from a re-analysis of the deposited data

How the results depend on the processing

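The downstream shift and the deficit of head-to-head genes kept direction and call under every alternative tried, at 6.85 to 12.1 points and -20.1 to -14.2 points. The motif count stayed at 6 to 8 and the number of gene lists above all genes at 10 to 17. The latter count does not say which lists these were. At −log10 q of at least 2, weak-only genes were 1 of 8 Hox, 3 of 28 muscle and 2 of 33 synaptic genes. They were 5 of 83 cytochrome P450, 4 of 13 segment polarity and 5 of 15 proneural and neuroblast genes, against 5.71% of all genes. The share within 100 bp of the start site was not stable. It was 2.01 points higher in members with windows of 250 bp, 5.57 with members of −log10 q of at least 2 (Fisher exact p = 0.00257), 4.77 with members found in every replicate list (p = 0.0128) and 2.23 to 2.66 without each replicate. It was -6.65 points with windows of 1000 bp (Fisher exact p = 1.34e-12). Members of −log10 q of at least 2 numbered 923 at 1005 genes, 796 of them weak-only, and called 55 learned words. Members found in every replicate list numbered 860 at 931 genes, 742 of them weak-only, and called 23 words. Without each replicate 43 to 70 words were called. These settings test fewer peaks. The number of chromosomes called was 0 with either of these sets of members, with windows of 1000 bp and without each replicate, and 1 without members that had an IDR summit within 2000 bp. The share of members in every replicate list was 9.35%, 32.99% and 49.2% with matching at 50 bp, 200 bp and by overlap, and 6.83% had a summit of the stronger part of the IDR list within 1000 bp. Among uncalled values, GAAGAAGA turned to -0.557 points (250 bp), -0.0649 (gene 5' ends only) and -0.758 (−log10 q of at least 2). The Pho core turned to 0.108 and the Su(Hw) core to 0.108 at that q, the Su(Hw) core to 0.349 with members found in every replicate list, -0.0838 to 0.0722 without each replicate, and 0.0707 with flanks at 2000 bp. CACGTG turned to -0.0236 in the window of 50 bp on each side, the CTCF core to -0.0471 with flanks at 2000 bp and chromosome 2L to 0.454 with members found in every replicate list. The cause of these shifts was not tested. No paired analysis was possible because the samples form 1 group, so no groups of samples could be paired. The contrasts of peak classes inside the 3 replicate lists are paired, and the smallest 2-sided permutation p they allow is 0.25.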
